A study of Mus musculus with 12 samples.

Results

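The genes that encode the phagocyte NADPH oxidase were followed through 12 libraries of mouse bone marrow derived macrophages (BMDMs). They were chosen by symbol, after the Ensembl gene IDs of the deposited counts had been matched to a gene annotation. The choice gave 5 genes of 54232 in the table, Cybb, Cyba, Ncf1, Ncf4 and Rac2, and all 5 passed the filter on low counts, which left 16281 genes for testing. Each was counted under a single ID. On GRCm38 (mm10), Cybb (ENSMUSG00000015340) lies on chromosome X at 9435252-9487771, Cyba (ENSMUSG00000006519) on chromosome 8 at 122424776-122432930 and Ncf1 (ENSMUSG00000015950) on chromosome 5 at 134220053-134229625, all on the minus strand. Ncf4 (ENSMUSG00000071715) and Rac2 (ENSMUSG00000033220) both lie on chromosome 15, at 78244801-78262580 on the plus strand and at 78559167-78572783 on the minus strand. All values are for whole genes, summed over exons.

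The oxidase moves electrons from NADPH across a membrane onto oxygen and makes superoxide, which macrophages and neutrophils use to kill microbes and to signal. Cybb and Cyba encode the membrane-bound catalytic core, in which the Cyba product holds the Cybb product stable and gives the cytosolic subunits a docking site. In resting cells the organizer encoded by Ncf1 and the adaptor encoded by Ncf4 stay in the cytosol. On stimulation kinases phosphorylate the organizer, the cytosolic group moves to the membrane, and a small GTPase of the Rac family, such as Rac2, completes the enzyme. Transcript levels therefore describe neither the amount of subunit protein nor the activity of the assembled enzyme. Neither was measured in these libraries.

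All libraries were poly(A)-selected RNA from BMDMs of wild-type C57BL/6 mice, which by the methods of the study were grown with M-CSF. The labels give 5 days of culture followed by 24 h of exposure, with 2 libraries in each of 6 groups. The groups received no tumor-conditioned medium (NS), TCM from NB9464 cells, TCM from NBT3L cells, R788 alone, NB9464 TCM with R788, or NBT3L TCM with R788. NB9464 is a mouse neuroblastoma line with amplified MYCN, NBT3L is a line without the amplification, and R788 (fostamatinib, used at 500 nM) is the prodrug of an inhibitor of the tyrosine kinase Syk. The methods describe NB9464 TCM as collected without serum. The sources used here do not describe NBT3L TCM, the medium of the NS cells or the vehicle of R788. TCM therefore cannot be told apart from a change of base medium, serum or M-CSF, nor R788 from its vehicle. Nothing in the labels says whether the libraries of a group came from separate mice or cultures, so the p-values measure the spread between these libraries, which may be technical. Total counts ran from 44977847 to 56449685 per library, and every member had at least 12059 counts in every library. The 7 macrophage markers, Adgre1 and Csf1r among them, were detected throughout, but their levels differed between groups in both directions. Against NS, Adgre1 was at 3.01-fold with NB9464 TCM and 3.94-fold with NBT3L TCM, and Cd68 at 0.64-fold and 0.77-fold. With R788 alone Fcgr1 was at 0.21-fold and Mertk at 1.69-fold. The R788 library numbered 8 stood apart, with 16149 genes detected against 17275 to 18343 in the others, and results that change without it are given with and without it.

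RefSeq promoter sequences on GRCm38.p6 were at hand for Cybb, Cyba and Ncf1, 3 of the 5 genes, and not for Ncf4 or Rac2. They are shown because the subunit genes are known targets of myeloid and interferon-driven transcription factors, and because these genes differed in how far they moved. Each sequence is the 250 bases before the RefSeq start, 5′ to 3′ on the strand of the gene, and capitals mark matches on either strand to the IRF motif (GAAA, any 2 bases, then GAAA) or the GAS motif TTCNNNGAA.
Cybb, chrX:9469325-9469574, minus strand: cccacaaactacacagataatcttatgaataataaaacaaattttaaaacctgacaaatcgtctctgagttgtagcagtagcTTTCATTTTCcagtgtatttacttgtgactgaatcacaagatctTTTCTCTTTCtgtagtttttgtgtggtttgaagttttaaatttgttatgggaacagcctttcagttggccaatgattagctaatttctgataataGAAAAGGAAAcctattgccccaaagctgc
Cyba, chr8:122432941-122433190, minus strand: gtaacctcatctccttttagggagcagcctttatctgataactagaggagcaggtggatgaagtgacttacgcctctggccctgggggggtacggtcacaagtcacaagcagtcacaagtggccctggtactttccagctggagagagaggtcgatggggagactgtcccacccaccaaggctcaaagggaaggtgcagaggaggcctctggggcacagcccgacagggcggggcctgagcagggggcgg
Ncf1, chr5:134229626-134229875, minus strand: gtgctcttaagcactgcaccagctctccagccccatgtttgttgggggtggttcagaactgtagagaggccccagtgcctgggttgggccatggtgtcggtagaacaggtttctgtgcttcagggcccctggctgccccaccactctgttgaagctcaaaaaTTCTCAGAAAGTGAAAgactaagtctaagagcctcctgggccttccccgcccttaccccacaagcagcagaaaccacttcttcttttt
The Cybb sequence held 3 IRF matches, at bases -168 to -159, -124 to -115 and -29 to -20 counted from the start. In the Ncf1 sequence a GAS match at -88 to -80 overlapped an IRF match at -82 to -73. Cyba had neither. GAGGAA, a form of the sites of ETS factors such as PU.1, was found in none of the 3 sequences, and shorter or other forms were not searched. Among 32817 RefSeq promoters of this length, 2.97% held the IRF motif, 7.01% the GAS motif and 23.3% GAGGAA. The RefSeq start of Cybb lies inside the gene as the annotation used for counting draws it, so the Cybb sequence is also part of that longer gene model. A match in letters is a description only, and neither binding nor chromatin was measured.

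Compared per transcript length, the 5 genes differed in level. On the TPM scale (counts per kilobase of merged exon, scaled to the same sum in every library), Cyba was the highest in every library, from 1795 to 2636 with a median of 2300, and ranked between 25th and 49th of all genes. Cybb ranged from 490 to 1669, with a median of 1476. Rac2 ranged from 350 to 1014, with a median of 863. Cybb and Rac2 therefore spanned a wide range of levels, whereas Ncf4 (363 to 575, median 497) and Ncf1 (278 to 500, median 363) stayed within a narrower one. Cybc1, whose product is a chaperone of the catalytic core and which is not among the 5 genes chosen, was lower still at 51.8 to 75.5. The plot of levels per length shows this order, with the groups side by side.

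**Figure D1:**
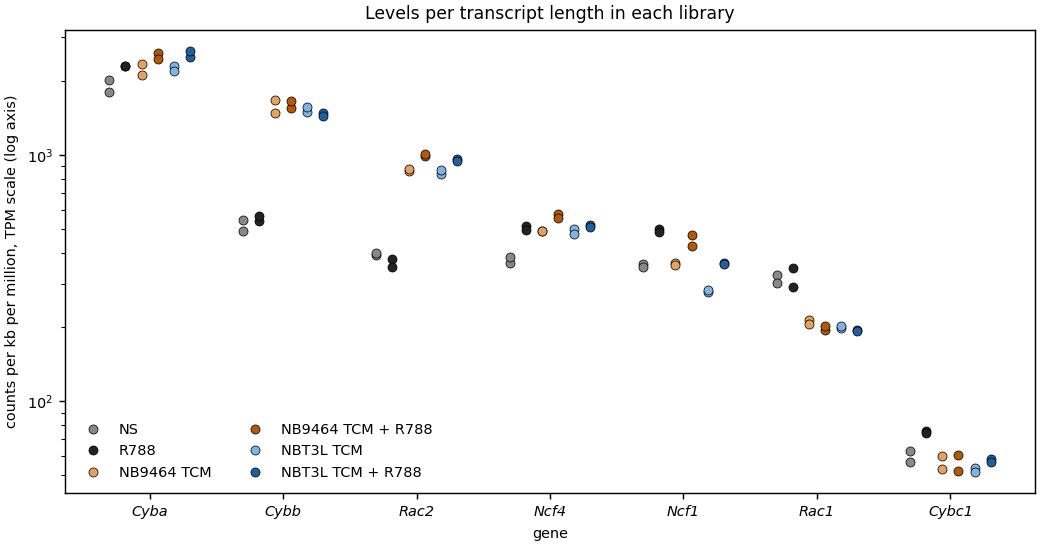
Level of each gene in each library (points, 2 per group) on the TPM scale, in counts per kilobase scaled to the same sum per library, on a log axis. Cyba stayed between 1795 and 2636 in all libraries, and the Cybb points fell into a low set without TCM and a high set with TCM.

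Levels within a gene are given from here on as normalized counts, that is counts divided by the size factor of the library, which are not comparable between genes. Cybb, the catalytic subunit, had normalized counts of 48716 and 45341 in the NS libraries, and of 47145 and 47916 with R788 alone. With TCM it stood at 176914 and 164836 (NB9464), 179248 and 188250 (NBT3L), 181017 and 185071 (NB9464 with R788) and 175810 and 173025 (NBT3L with R788). The 8 TCM libraries were all above the 4 others with a wide gap, from 48716 to 164836, and R788 and NS overlapped. In order of mean level NBT3L TCM came first, then NB9464 TCM with R788, NBT3L TCM with R788, NB9464 TCM, R788 and NS, and the neighbors that did not overlap were the TCM + R788 groups with each other and NB9464 TCM with R788 alone.

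Cyba, which encodes the stabilizing partner of the core, had 28816 and 33513 normalized counts in NS and 36111 and 35008 with R788. It had 40225 and 46706 with NB9464 TCM, 49123 and 47039 with NBT3L TCM, 54286 and 48979 with NB9464 TCM and R788, and 53466 and 56529 with NBT3L TCM and R788. By normalized count the TCM libraries were again all above the rest, but by a small margin, 40225 against 36111. Both pairs at the top of the order overlapped, NBT3L TCM with R788 over NB9464 TCM with R788 and the latter over NBT3L TCM, and the groups below them did not. On the TPM scale Cyba libraries with TCM overlapped those without it. The group means there were 2231 with NB9464 TCM and 2245 with NBT3L TCM, against 2300 with R788 alone.

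For Rac2, the GTPase, the NS libraries held 18810 and 19701 normalized counts and the R788 libraries 17680 and 15892. Levels were 48683 and 52265 with NB9464 TCM, 53617 and 55387 with NBT3L TCM, 62062 and 60476 with NB9464 TCM and R788, and 60666 and 61289 with NBT3L TCM and R788. Only the 2 groups that had both TCM and R788 overlapped among neighbors in this order. R788 libraries were thus the lowest without TCM and the highest with it.

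Ncf1, the organizer, stood at 20341 and 20425 normalized counts in NS, 27696 and 26205 with R788, 24450 and 25142 with NB9464 TCM and 21013 and 21314 with NBT3L TCM. In the presence of R788 it reached 31622 and 33271 with NB9464 TCM and 27415 and 27253 with NBT3L TCM. All 6 libraries with R788 were above the 6 without it, 26205 against 25142 at the closest, and libraries with and without TCM overlapped. NBT3L TCM with R788 and R788 alone were the only neighbors in order that overlapped. On the TPM scale the pooled R788 libraries of Ncf1 overlapped the rest. NBT3L TCM with R788 stood there at 364.6 and 360.5, against 365.8 in an NB9464 TCM library without R788. Within each medium the R788 libraries stayed higher. Ncf4, whose product binds the membrane lipid PI3P, had 11326 and 12430 normalized counts in NS, 15779 and 14669 with R788, 18110 and 18983 with NB9464 TCM and 20748 and 19866 with NBT3L TCM. It had 23415 and 21485 with NB9464 TCM and R788 and 21633 and 21197 with NBT3L TCM and R788. For Ncf4 the TCM libraries did not overlap the others by normalized count, and the 2 groups at the top overlapped each other. On the TPM scale its libraries with NBT3L TCM, at 499 and 477, overlapped those with R788 alone, at 517 and 496.

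**Figure D2:**
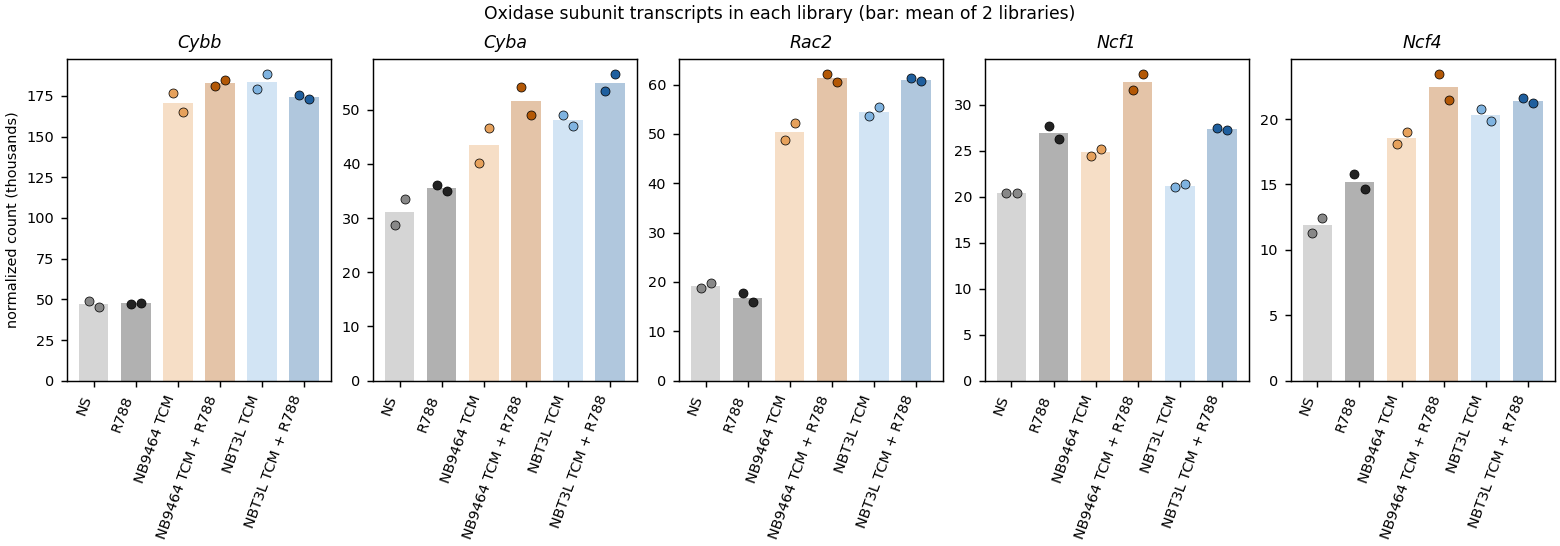
Normalized count (linear axis from 0) of each of the 5 genes in each library (points), with bars at the mean of the 2 libraries of a group. Cybb and Rac2 separate the groups with TCM from those without, and the Ncf1 points with R788 lie above those without it.

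The first question was how TCM changed the oxidase genes. Cybb rose 3.63-fold with NB9464 TCM (log2 fold change 1.86 ± 0.051 SE, DESeq2 adjusted p = 1.60e-285) and 3.91-fold with NBT3L TCM (1.97 ± 0.051). Rac2 rose 2.62-fold (1.39 ± 0.058, adjusted p = 1.47e-124) and 2.83-fold (1.50 ± 0.058, adjusted p = 4.72e-145). The other 3 moved less. Ncf4 rose by 0.64 ± 0.065 and 0.77 ± 0.065 on the log2 scale, and Cyba by 0.48 ± 0.078 and 0.63 ± 0.078. Ncf1 rose with NB9464 TCM (0.28 ± 0.049, adjusted p = 6.14e-08) and was not called with NBT3L TCM (0.054 ± 0.049, 95% interval -0.04 to 0.15, adjusted p = 0.445). In all, 5 of the 5 genes were called higher with NB9464 TCM, where 17.2% of all genes tested were called higher and 34.1% in either direction. With NBT3L TCM 4 of 5 were called higher, against 18.0% of all genes called higher and 35.3% in either direction. The median log2 change of the 5 was 0.64 and 0.77, and that of all genes 0.021 and 0. Both comparisons share the NS libraries.

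The scale set the direction for Ncf1. Scaling to the total count of each library in place of size factors lowered the median of all genes by 0.12 on the log2 scale for NB9464 TCM and by 0.23 for NBT3L TCM, and scaling to the sum of counts per length, as in the TPM values, by 0.25 and 0.39. On these 2 scales, both chosen after the data were seen, Cybb, Cyba, Ncf4 and Rac2 were still called higher with both media, Cybb by 1.57 to 1.73 and Cyba by 0.22 to 0.39. Ncf1 was called lower with NBT3L TCM on both (-0.18, DESeq2 adjusted p = 0.000957, and -0.34, adjusted p = 1.98e-08), and with NB9464 TCM its rise was 0.15 (adjusted p = 0.00547) and 0.028 (adjusted p = 0.754). On the TPM scale its group means were 355 in NS, 362 with NB9464 TCM and 280.3 with NBT3L TCM.

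**Figure D3:**
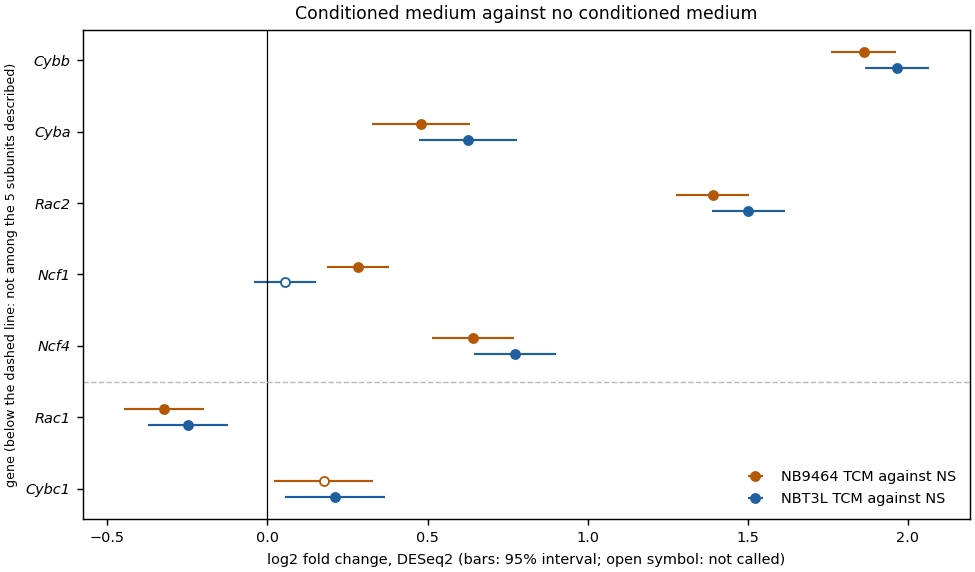
Log2 fold change (DESeq2, points) with 95% intervals (bars) for NB9464 TCM and NBT3L TCM against NS, with open symbols for values not called. Cybb (1.86 and 1.97) and Rac2 (1.39 and 1.50) lie to the right of the other genes, Rac1 lies below 0, and Ncf1 with NBT3L TCM is at 0.054.

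Averaged over both media and over R788, with 8 TCM libraries against 4, all 5 were called higher, where 25.7% of all genes were called higher and 50.6% in either direction. The mean log2 difference was 1.91 ± 0.031 for Cybb, 1.66 ± 0.036 for Rac2, 0.62 ± 0.040 for Ncf4, 0.57 ± 0.048 for Cyba and 0.16 ± 0.030 for Ncf1. On the total count scale the value of Ncf1 was -0.058 (DESeq2 adjusted p = 0.0886) and on the per-length scale -0.22 (adjusted p = 6.26e-10), so its direction was not fixed here either.

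Transcripts listed as neutrophil markers moved with TCM, which matters because neutrophils also express these oxidase genes strongly. The summed normalized count of the 10 markers was 17033 to 17698 in NS and 21704 to 23352 with R788, against 45543 to 47140 with NB9464 TCM, 45921 to 46231 with NBT3L TCM, 30701 to 31855 with NB9464 TCM and R788 and 26574 to 27190 with NBT3L TCM and R788. Mmp8 and S100a8 carried the rise. The granule genes Ngp, Ltf, Elane and Mpo and the receptor gene Cxcr2 were lower in every TCM library than in NS, and Ly6g was at 0 in 9 of 12 libraries. Of 9 markers tested with NB9464 TCM 2 were called higher and 4 lower, and with NBT3L TCM 2 and 5. Summed neuroblastoma markers were at 0 in every library without TCM and between 23.9 and 71.1 normalized counts with it. The part of either cell type in the oxidase results was not tested. In such bulk samples more cells of a type and more RNA per cell cannot be told apart.

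Because the subunits work as partners, ratios were taken within each library, where the scaling between libraries has no effect. The ratio of Cybb to Cyba per length was 0.242 to 0.302 in NS and 0.234 to 0.245 with R788. With TCM it was 0.631 to 0.787 (NB9464), 0.653 to 0.716 (NBT3L), 0.597 to 0.676 (NB9464 with R788) and 0.548 to 0.588 (NBT3L with R788). TCM raised the log2 ratio by 1.34 (exact permutation test, two-sided, p = 0.00444, adjusted over 4 tests 0.00889), and this p was the smallest the 225 arrangements allow. In each medium the mean ratio was lower with R788, by 0.20 on the log2 scale on average, which did not pass adjustment (exact permutation p = 0.0463, adjusted 0.0617). It passed without NS replicate 2 (-0.25) and without NB9464 TCM replicate 4 (-0.25), both with an adjusted exact p of 0.0247.

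Rac1, the Rac found in most cell types, fell with both media, by 0.32 ± 0.064 on the log2 scale with NB9464 TCM and by 0.25 ± 0.064 with NBT3L TCM (DESeq2 adjusted p = 2.60e-06 and 0.000498). The ratio of Rac2 to Rac1 per length was 1.21 to 1.32 in NS, 1.01 to 1.30 with R788 and 4.02 to 5.09 across the 8 TCM libraries. The TCM difference was 1.93 on the log2 scale (exact permutation p = 0.00444, adjusted 0.00889). For R788 it was 0.12 (exact permutation p = 0.222), and 0.18 with an adjusted exact p of 0.0370 without R788 replicate 8. The exons of Rac1 overlap those of Daglb on the other strand over 51.4% of their length, and the use of strand in counting was not stated, so the level of Rac1 is uncertain.

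**Figure D4:**
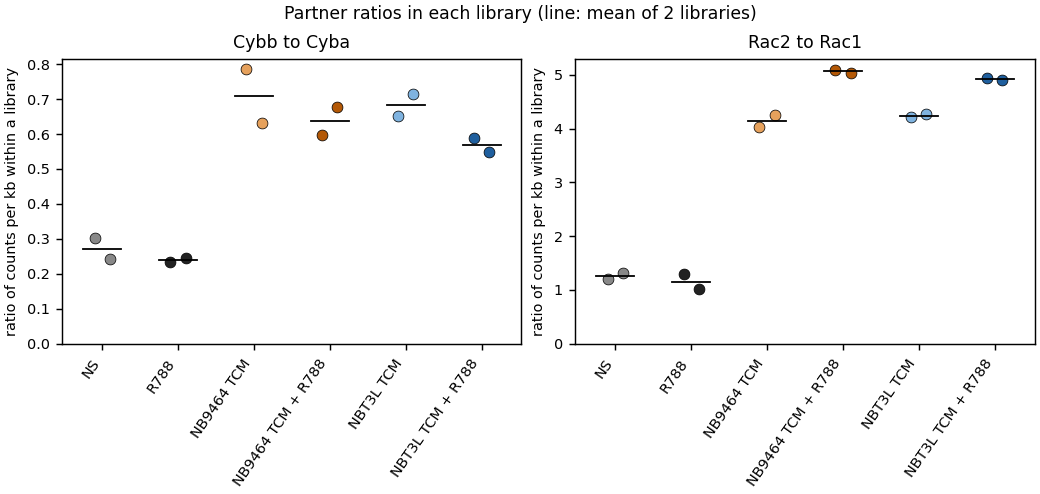
Ratio of Cybb to Cyba and of Rac2 to Rac1, in counts per kilobase within each library (points, linear axes from 0), with lines at the mean of the 2 libraries of a group. Both ratios are higher in all 8 TCM libraries, with means of 0.568 to 0.709 against 0.239 and 0.272 for Cybb to Cyba.

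The second question was what R788 did to the same genes. In BMDMs without TCM, R788 raised Ncf1 by 0.40 ± 0.049 on the log2 scale (1.32-fold, DESeq2 adjusted p = 5.63e-15) and Ncf4 by 0.36 ± 0.065 (1.28-fold, adjusted p = 4.86e-07). Rac2 fell by 0.20 ± 0.058 (adjusted p = 0.00367). Cybb showed 0.015 ± 0.051 (95% interval -0.09 to 0.12) and Cyba 0.19 ± 0.078 (adjusted p = 0.0510), and neither was called. So 3 of 5 were called, where 26.6% of all genes were. The Rac2 difference was lost without R788 replicate 8 (-0.12, adjusted p = 0.0576), without NS replicate 2 (-0.17, adjusted p = 0.0812), with only the libraries compared in the fit and on both other scales (-0.13 and -0.12, adjusted p = 0.0561 and 0.0677). Cyba was called on both other scales (0.26 and 0.27) and without NS replicate 2 (0.30, adjusted p = 0.00318).

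With NB9464 TCM present, R788 raised 4 of 5, where 5.79% of all genes were called higher and 14.5% in either direction. Ncf1 rose by 0.39 ± 0.049 on the log2 scale (DESeq2 adjusted p = 1.29e-13), Rac2 by 0.28 ± 0.058 (adjusted p = 2.61e-05), Ncf4 by 0.28 ± 0.065 (adjusted p = 0.000308) and Cyba by 0.25 ± 0.078 (adjusted p = 0.0116). Cybb, at 0.099 ± 0.051 (95% interval -0.0010 to 0.20), was not called. The call for Cyba was lost without NB9464 TCM replicate 3 (0.14, adjusted p = 0.327), without either R788 library (adjusted p = 0.0937 and 0.110), without NB9464 TCM + R788 replicate 9 (0.17, adjusted p = 0.288) and on the per-length scale (0.18, adjusted p = 0.0535). Ncf4 was lost without replicate 9 as well (0.21, adjusted p = 0.0629).

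With NBT3L TCM, 2 of 5 were called, where 5.33% of all genes were called higher and 12.6% in either direction. Ncf1 rose by 0.37 ± 0.049 on the log2 scale (DESeq2 adjusted p = 3.29e-12) and Rac2 by 0.16 ± 0.058 (adjusted p = 0.0358). Rac2 was not called with edgeR (0.17, adjusted p = 0.0711), and was lost on leaving out any of replicates 5, 6, 9, 10, 11 and 12 (0.14 to 0.19, adjusted p = 0.0592 to 0.279). The values of Cyba (0.19 ± 0.078, 95% interval 0.04 to 0.35), Ncf4 (0.077 ± 0.065, -0.05 to 0.20) and Cybb (-0.075 ± 0.051, -0.18 to 0.03) were not called. Cyba was called on both other scales (adjusted p = 0.0328 and 0.0326).

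**Figure D5:**
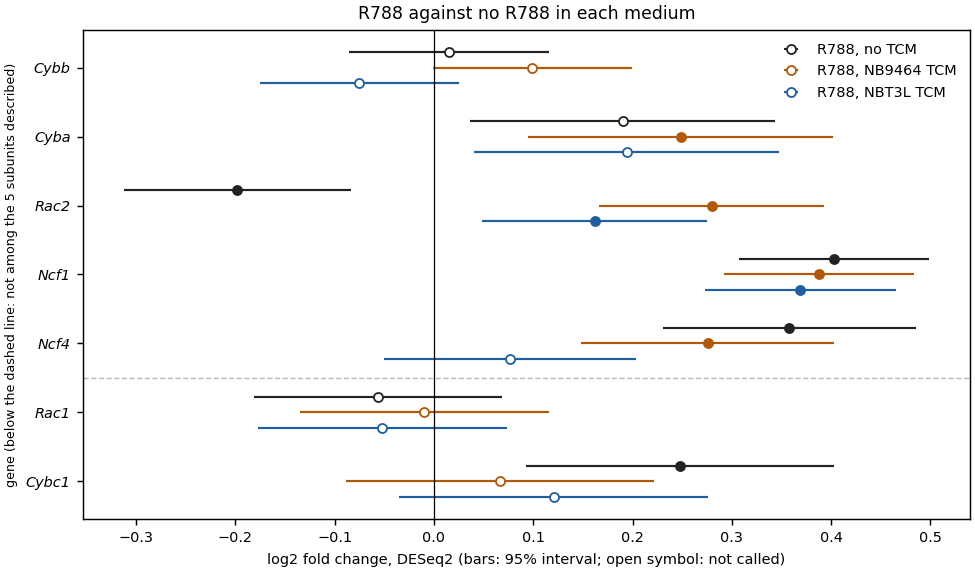
Log2 fold change (DESeq2, points) with 95% intervals (bars) for R788 in BMDMs without TCM, with NB9464 TCM and with NBT3L TCM, with open symbols for values not called. Ncf1 is at 0.40, 0.39 and 0.37, Cybb intervals all reach 0, and Rac2 is below 0 without TCM and above 0 with it.

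Averaged over the 3 media, with 6 libraries on each side, R788 raised Ncf1 by 0.39 ± 0.028, Ncf4 by 0.24 ± 0.038 and Cyba by 0.21 ± 0.045 on the log2 scale (DESeq2 adjusted p = 1.09e-40, 3.77e-09 and 2.44e-05), where 13.4% of all genes were called higher and 29.6% in either direction. These 3 were called on all scales tried and with edgeR. Rac2 (0.081 ± 0.033, adjusted p = 0.0508) and Cybb (0.013 ± 0.030, 95% interval -0.04 to 0.07) were not. Rac2 was called on both other scales (0.10 and 0.083, adjusted p = 0.00474 and 0.0216), without R788 replicate 8 (0.10, adjusted p = 0.000415), without NS replicate 2 (0.093, adjusted p = 0.0381), without NB9464 TCM replicate 4 (0.098), with no filter on low counts and with a filter at a mean of 50 counts.

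Whether the effect of R788 depended on TCM was tested by interaction terms. For Rac2 the R788 effect was higher with NB9464 TCM than without TCM by 0.48 ± 0.082 on the log2 scale (DESeq2 adjusted p = 2.67e-07), and with NBT3L TCM by 0.36 ± 0.082 (adjusted p = 0.000272). Both differences were called with edgeR (adjusted p = 0.00104 and 0.00818), on both other scales and without any single library, with 0.40 and 0.28 when R788 replicate 8 was left out. For Ncf4 the effect was lower with NBT3L TCM than without, by -0.28 ± 0.092 (adjusted p = 0.0216), but edgeR did not call it (adjusted p = 0.0971). It was also lost without NS replicate 1 (-0.21), NBT3L TCM replicate 5 (-0.25) or NBT3L TCM + R788 replicates 11 (-0.30) and 12 (-0.27), with adjusted p from 0.0647 to 0.167. The counts were 1 of 5 for NB9464 TCM, where 12.5% of all genes were called, and 2 of 5 for NBT3L TCM, where 10.1% were. Both share the NS and R788 libraries.

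A further comparison set the media against each other. Between NB9464 TCM and NBT3L TCM 1 of 5 was called, where 9.40% of all genes were, namely Ncf1, which was 0.23 ± 0.049 higher on the log2 scale with NB9464 TCM (DESeq2 adjusted p = 7.74e-05). With R788 in both, Ncf1 was again the 1 called, 0.25 ± 0.049 higher with NB9464 TCM (adjusted p = 1.52e-05), where 9.62% of all genes were called. For the other 4 genes the 95% intervals ran at most from -0.30 to 0.0078 without R788 and from -0.24 to 0.20 with it. The R788 effect itself differed between the media for 0 of 5 by DESeq2, where 0.706% of all genes were called, and for 0 by edgeR. Cybb (0.17 ± 0.072) and Ncf4 (0.20 ± 0.092) had an unadjusted DESeq2 p under 0.05, but an adjusted p of 0.419 and 0.546. The share of all genes under that unadjusted threshold is not reported here.

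Other genes tied to the complex were read beside these 5. Of its 50-base words Ncf1 shares 7.45% with transcripts of other genes, while Cybb and Ncf4 share none. Cybc1 rose with R788 alone by 0.25 ± 0.079 (adjusted p = 0.00806). With TCM it showed 0.18 ± 0.079 (NB9464, adjusted p = 0.0729) and 0.21 ± 0.080 (NBT3L, adjusted p = 0.0235, and 0.0617 with edgeR). On the per-length scale both turned below 0 (-0.078 and -0.18). Chosen after its values were seen, the proton channel gene Hvcn1, whose product offsets the charge that the oxidase moves, rose by 1.33 ± 0.085 with NB9464 TCM and 1.57 ± 0.085 with NBT3L TCM. It also rose with R788 alone, by 0.91 ± 0.086 (DESeq2 adjusted p = 1.24e-24). The exons of Hvcn1 overlap Tctn1 on the other strand over 44.2% of their length. Nrros, of the same list and also named after its values were seen, was lower with NB9464 TCM (-0.30 ± 0.062) and NBT3L TCM (-0.20 ± 0.062).

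The counts for the lists that follow stand beside the shares of all genes called, which were 34.1% with NB9464 TCM (17.2% higher) and 35.3% with NBT3L TCM (18.0% higher), and for R788 26.6% without TCM, 14.5% with NB9464 TCM and 12.6% with NBT3L TCM. These shares hold for size factors only. On the per-length scale the median log2 change of all genes was -0.23 with NB9464 TCM and -0.39 with NBT3L TCM. The shares called on that scale are not reported here, so the per-length counts of the lists cannot be set against them. The kinases that phosphorylate the organizer included both directions. With NB9464 TCM 3 of 8 rose and 1 fell, and with NBT3L TCM 4 rose and 1 fell, with median log2 changes of 0.15 and 0.16. On the per-length scale 2 rose and 2 fell, and 1 rose and 2 fell, with medians of -0.10 and -0.24. Prkcb, a protein kinase C, rose by 1.73 ± 0.082 and 1.95 ± 0.082, and Pak1, a kinase activated by Rac, fell by 0.54 ± 0.11 and 0.50 ± 0.11. With R788, 5 of 8 rose without TCM, 3 with NB9464 TCM and 4 with NBT3L TCM, and 0 fell. Mapk14, the p38 kinase, rose in all 3 (0.49, 0.25 and 0.31, the second not called without NB9464 TCM replicate 4, without NB9464 TCM + R788 replicate 10 or on the per-length scale), and so did Prkcb (0.56, 0.39 and 0.29). The last of these was named after its value was seen, and was not called without NBT3L TCM replicate 5 or NBT3L TCM + R788 replicate 11 (DESeq2 adjusted p = 0.0518 and 0.0643).

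Among 12 genes that control Rac, 6 rose and 3 fell with NB9464 TCM (34.1% of all genes called), and 6 rose and 4 fell with NBT3L TCM (35.3%), with median log2 changes of 0.36 and 0.55 (4 rose and 5 fell with either medium on the per-length scale). Arhgdib, an inhibitor that keeps Rac in the cytosol and is abundant in blood cells, rose by 0.87 ± 0.043 with NB9464 TCM and, named there after its value was seen, by 1.14 ± 0.043 with NBT3L TCM. Tiam1, an exchange factor that loads Rac with GTP, fell by 1.44 ± 0.15 and 1.30 ± 0.15. With R788, 2 rose and 1 fell without TCM (26.6% of all genes called), 4 rose and 2 fell with NB9464 TCM (14.5%), and 3 rose and 2 fell with NBT3L TCM (12.6%). Of the 4 genes for PI3P synthesis, which makes the lipid that the Ncf4 product binds, only the kinase gene Pik3c3 was called, lower with NB9464 TCM (-0.30 ± 0.097) and NBT3L TCM (-0.56 ± 0.099), and the list medians were 0.032 and -0.025. The first of these calls was lost without NS replicate 2 (-0.28, DESeq2 adjusted p = 0.0933) or NB9464 TCM replicate 3 (-0.22, adjusted p = 0.170). On the per-length scale all 4 were called lower with NBT3L TCM, where the median of all genes was itself -0.39.

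Transcription factors known to act on the subunit genes were split. Of 7, 3 rose and 3 fell with NB9464 TCM (34.1% of all genes called), and 3 rose and 2 fell with NBT3L TCM (35.3%), with median log2 changes of -0.050 and -0.066 (2 rose and 4 fell, and 1 rose and 5 fell, on the per-length scale). Cebpb, a factor of inflammatory macrophages, rose by 1.09 ± 0.069 and 1.17 ± 0.069, whereas Irf1 fell by 0.71 ± 0.097 with NB9464 TCM and Elf1, an ETS factor, by 0.56 ± 0.073 with NBT3L TCM. Both were also called lower with the other medium, Irf1 with NBT3L TCM (-0.29 ± 0.097) and Elf1 with NB9464 TCM (-0.45 ± 0.073). These last values were named after they were seen. Spi1, which encodes PU.1, rose with R788 and NB9464 TCM by 0.26 ± 0.062.

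Of 10 genes for enzymes that dispose of superoxide and peroxide, 7 rose and 3 fell with NB9464 TCM (17.2% of all genes called higher), and 8 rose and 1 fell with NBT3L TCM (18.0%), with median log2 changes of 0.39 and 0.47. On the per-length scale 5 rose and 3 fell, and 4 rose and 2 fell. Sod2, the mitochondrial superoxide dismutase, rose by 3.70 ± 0.068 and 4.13 ± 0.068, and Prdx5, a peroxiredoxin, by 2.28 ± 0.078 and 2.41 ± 0.078. With R788 alone 3 rose and 5 fell (26.6% of all genes called), with Sod2 higher by 0.81 ± 0.068 and the glutathione peroxidase gene Gpx1 lower by 0.69 ± 0.082. R788 raised 5 and lowered 2 with NB9464 TCM (14.5% of all genes called), and raised 1 and lowered 2 with NBT3L TCM (12.6%). Of 7 genes for other oxidases of the family and their organizer or activator subunits, 2 passed the filter on low counts, the oxidase gene Nox1 and the organizer gene Noxo1. Nox1 was named after its values were seen and had a mean of 45.8 normalized counts. Its exons overlap those of Cstf2 on the other strand over 12.1% of their length. Nox1 fell with both media (-2.46 ± 0.72 and -2.70 ± 0.73). Neither call held without NS replicate 1 (DESeq2 adjusted p = 0.0853 and 0.0518).

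The 5 genes were last compared with each other and with the rest of the table over the 12 libraries, as Pearson correlations of log2(normalized count + 1). These describe likeness only, since the libraries fall into sets with and without TCM. Cybb and Rac2 were closest to each other at 0.988, Cyba and Ncf4 stood at 0.966, and Ncf1 was loosest, with 0.32 to 0.59 to the other 4. Within the 8 TCM libraries Cybb had 0.26 with Rac2 and Cyba -0.025 with Cybb, whereas Ncf4 kept 0.92 with Rac2. Of the 10710 genes averaging 100 or more normalized counts, those most like Cybb included Bst1 (0.998) and Plpp1 (0.997), which had 3354 to 3755 and 68.7 to 91.0 normalized counts without TCM and 19881 to 24569 and 2636 to 3559 with it. Rac2 was most like Saa3 (0.998), Rexo2 (0.996) and the Rac exchange factor gene Vav1 (0.995). Zfand3 (0.993), Hsd11b1 (0.988) and Agtrap (0.986) followed Ncf4, and H2-Ab1 (0.984), Akr1c13 (0.983) and Cdipt (0.982) followed Cyba. For Ncf1 the values named are those of Ankzf1 (0.963) and Sephs2 (0.959).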

How the data were processed

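BMDM RNA was sequenced in 12 libraries, grouped by the labels into 6 groups of 2. The deposited values are whole read counts, 1 for each Ensembl gene and library, which the authors made after mapping to mm10 with STAR. Their methods name Salmon for quantification, but the layout of the table is that of featureCounts, so the counting program is uncertain. The submitters' processing notes list STAR 2.6.1d and Salmon 1.4.0, with Picard 2.26, SAMtools 1.9 and MultiQC 1.11. The strand setting and the treatment of reads with several matches were not given in the sources used here. Reads were paired by the labels and single by the methods, and the methods state 3 replicates where the labels give 2 libraries per group. Even values made up 65.2% to 67.9% of counts from 1 to 40, so a refit on counts divided by 2 was among the alternatives. Libraries held 44977847 to 56449685 counts, and each member at least 12059 in every library, so precision rested on the 2 libraries per group more than on depth.

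Symbols came from GENCODE M21 (GRCm38), which held 54165 of 54232 IDs, and table lengths equaled its merged exon lengths for 97.3%. Genes that reached 10 counts in 2 or more libraries were tested with DESeq2 1.42.0 in R 4.3.3, in a single fit of 6 group means, with Wald tests, unshrunken log2 fold changes and Benjamini-Hochberg adjustment over all genes tested in each contrast. A gene was called at an adjusted p under 0.05. The fit was tested on simulated data. Ratios within libraries were compared by exact permutation of labels within strata. The alternatives were edgeR 4.0.16 (quasi-likelihood test), TMM scaling, other filters, fits of only the libraries compared, each library left out and, chosen after the data were seen, scaling to total counts and to the sum of counts per length. The 5 genes, the pathway and marker lists and the tests were chosen with earlier results of these data known. Named from each pathway list were at most the 2 called genes with the largest change and a mean of at least 100 normalized counts, with Rac1 and Cybc1 always described and, for likeness, the 3 genes of highest correlation with each member, of which those shown are named. Some genes that this rule covers are not reported here.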

Additional observations from a re-analysis of the deposited data

Results flagged for a closer look

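The effect of R788 on 2 oxidase genes differed between BMDMs with and without TCM by the interaction term of the DESeq2 fit. For Rac2 the difference was 0.48 on the log2 scale with NB9464 TCM and 0.36 with NBT3L TCM, with R788 libraries below NS without TCM and above the matching libraries with TCM. For Ncf4 it was -0.28 with NBT3L TCM, a call that edgeR did not make.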

How the results depend on the processing

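No paired analysis was possible because the libraries are numbered 1 to 12 across the groups, so that groups share no replicate number. With each library left out in turn, the members called for R788 numbered 2 to 4 with NB9464 TCM (4 as reported, 2 without NB9464 TCM + R788 replicate 9) and 1 to 3 with NBT3L TCM (2 as reported), where edgeR called 1 and a fit of only the libraries compared 4, Cybb (-0.074) and Cyba (0.20) added. Between NB9464 TCM and NBT3L TCM they numbered 1 to 2, and with R788 in both a fit of only the libraries compared called 2. For the interaction with NB9464 TCM scaling to counts per length called 2. For that with NBT3L TCM edgeR called 1, and leaving out libraries gave 1 to 2. For the interaction between the media a fit of only the libraries compared called 1, Cybb (0.18). That fit also called more of all genes, as given below. For the other contrasts, the shares of all genes called by the alternatives other than leaving out a library are not reported here. Whether the members added or lost only follow the number of all genes called was not tested. The log2 ratio of Cybb to Cyba differed with R788 by -0.25 to -0.15 with a library left out, and that of Rac2 to Rac1 by 0.061 to 0.18.

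Sign changes, other than those of Ncf1 with NBT3L TCM (-0.18 and -0.34) and with TCM averaged (-0.058 and -0.22), concerned values that were not called under the alternative. Scaling to total count or counts per length turned Cybc1 with NBT3L TCM to -0.020 and -0.18 and Rac1 with R788 alone to 0.012 and 0.022. Counts per length turned Cybc1 to -0.078 with NB9464 TCM and to -0.0062 with NB9464 TCM and R788. With a library left out, Cybb ran from -0.037 to 0.066 with R788 alone and from -0.0041 to 0.031 with R788 averaged, and Rac1 from -0.17 to 0.046 with R788 alone. With R788 in NB9464 TCM, Rac1 ran from -0.022 to 0.00015 and Cybc1 from -0.0064 to 0.13. Counts over all genes moved by over 1.5 times only for the interaction between the media (115, against 21 with edgeR, 272 with only the libraries compared and 46 to 234 with a library left out) and, with a library left out, for R788 in NB9464 TCM (2359, 1432 to 2885), R788 in NBT3L TCM (2046, 1173 to 2566), NB9464 against NBT3L TCM (1531, 795 to 2007), the same with R788 (1567, 852 to 1981) and the interactions with NB9464 TCM (2032, 1344 to 2974) and NBT3L TCM (1649, 1038 to 2583). The causes of these changes were not tested. With 2 libraries a group, differences of the size of those of Cyba and Rac2 with R788 sat near the threshold.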
